A study of Homo sapiens with 9 samples.

Results

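The TGF-beta and BMP signalling genes described here were 47 genes listed by symbol, with no threshold on their measured values: the ligands, the proteins that store or activate them, the receptors, the SMAD proteins and their regulators, the ID target genes and the secreted or membrane-bound inhibitors. All 47 had a row among the 26475 genes of the count table, and 44 passed the filter on low counts, which left 13784 genes tested. RNA was measured by sequencing in hTERT-RPE1 cells, an immortalised human retinal pigment epithelial line, 24 h after seeding, in 3 conditions of 3 libraries each. Control cells carried the pLKO_1 vector without a hairpin against PIP4K2B and grew on fibronectin-coated glass. The sh_PIP4K2B cells grew on the same glass and carried a short hairpin RNA against PIP4K2B, a lipid kinase that phosphorylates PtdIns5P, with a different hairpin in each library (#1, #2 and #3). Soft cells carried the same vector as Control and grew on a fibronectin-coated hydrogel of 2.3 kPa. The sample titles and the study's methods call the Control vector empty, whereas a treatment label calls it a control hairpin. The titles write it as pLKO_1, pLKO_2 and pLKO_3 for libraries 1, 2 and 3 of both Control and Soft, whereas the study names only pLKO_1. No library combined a PIP4K2B hairpin with the gel, and no hairpin had a second library, so the spread within sh_PIP4K2B includes differences between hairpins. Nothing in the labels says that replicates came from separate cultures, so p-values measure only the spread between these libraries, which may be technical.

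Ligands of this family are secreted as dimers and bind pairs of type I and type II receptor kinases. TGF-beta itself is secreted in a latent form that is tied to the matrix by latent TGF-beta binding proteins (LTBPs) and must be released, in part by traction that cells exert on that matrix. TGF-beta and activin receptors phosphorylate SMAD2 and SMAD3, whereas BMP receptors phosphorylate SMAD1 and SMAD5. Either kind joins SMAD4 and enters the nucleus, and inhibitory SMADs, ubiquitin ligases and secreted antagonists oppose the signal. In the retinal pigment epithelium TGF-beta is known for driving a mesenchymal change of the epithelium.

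Total counts ranged from 19217336 to 24020796 per library, so that 3 counts, taken as the floor, corresponded to 0.131 to 0.148 counts per 1000000 counts of the library (CPM); this floor covers counting error only. Values below are CPM after TMM scaling, a log2 fold change is given ± its standard error (SE), and an adjusted p comes from the quasi-likelihood test of edgeR, adjusted by Benjamini and Hochberg's method over every gene tested; genes under 0.01 were called. PIP4K2B was at 123, 124 and 119.5 CPM in the Control libraries, 48.4, 40.9 and 36.6 with hairpins #1, #2 and #3, and 119, 122 and 127 in the Soft libraries, so its mRNA was 2.91-fold lower in sh_PIP4K2B and overlapped Control on the gel. Of the defining markers of retinal pigment epithelium, RPE65, LRAT, TYR and TTR were at 0 to 2 counts in every library, while MITF, OTX2, KRT8 and KRT18 were detected in all. RLBP1 was at 0 in the 6 libraries on glass and at 8, 11 and 7 counts in Soft. Summed over the 13 markers, levels were 1991 to 2142 CPM in Control, 757 to 1168 CPM with the hairpins and 971 to 1020.1 CPM in Soft. Most of these sums came from the keratin genes KRT8 (means of 1079, 558 and 546 CPM) and KRT18 (902, 420 and 364 CPM). Of the 7 tested, OTX2 was higher and RDH5 (4.79-fold) and KRT18 (2.15-fold) were lower with the hairpins, and BEST1 and OTX2 were higher and KRT8 and KRT18 lower in Soft. Among markers of other cell types, 5 of 6 of fibroblasts were higher in Soft than in Control, with summed levels of 598 to 612 CPM over the Control libraries, 212 to 467 CPM over the hairpins and 594 to 651 CPM over the Soft libraries. THY1, the one not called, made up most of these sums, with means of 569, 257 and 377 CPM, whereas PDGFRA, PDGFRB, DCN and COL3A1 were 6.29- to 10.5-fold higher in Soft and LUM rose from 4, 1 and 2 counts to 14, 11 and 17. Endothelial markers summed to 0.132 to 0.874 CPM, 0.385 to 0.643 CPM and 4.87 to 5.86 CPM, PECAM1, 1 of the 2 tested markers, being higher in Soft and CDH5 at 0 in 8 of 9 libraries. Immune markers summed to 64.2 to 68.9 CPM, 42.9 to 80.8 CPM and 144 to 149 CPM, both tested markers (CD14 and CD68) being higher in Soft. CD68 made up most of these sums, with means of 66, 63.7 and 145 CPM. PTPRC, not tested, was at 10, 8 and 12 counts in Control, 7, 6 and 7 with the hairpins and 7, 6 and 8 in Soft. Thus the sums for retinal pigment epithelium, mostly KRT8 and KRT18, were below Control in both other groups, whereas OTX2 was higher in both. Fibroblast sums were lower with the hairpins but overlapped Control in Soft. Endothelial and immune sums were higher in Soft but overlapped Control with the hairpins. The part of these levels in the hairpin and Soft results below was not tested. In bulk RNA, fewer cells of a type and less RNA per cell cannot be told apart.

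On the gel, 20 of the 44 tested genes changed against Control, 14 higher and 6 lower. TGFB1, TGFB3, BMP2, BMP4, BMP6 and GDF6 rose, as did LTBP1, LTBP4, BMP1, ACVR1, ACVR2B, SMAD1, SMAD7 and ID2, whereas TGFB2, SMAD5, SMURF2, FST, FSTL3 and FSTL1 fell. The share called was 45.5%, against 30.6% of all genes tested (15.8% higher and 14.8% lower), and the median log2 fold change of the 44 was 0.35, against 0.01 over all genes. The libraries of Soft and Control did not overlap for 37 of the 44 genes, 27 above and 10 below, where 79.4% of all genes did not overlap.

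With the hairpins, 4 of the 44 genes changed against Control. ACVR2B, ACVR2A and TGFBR1, 3 receptors, and the BMP target ID2 were higher, by 0.95 to 1.64 on the log2 scale. That is 9.09% of the genes tested, against 5.54% of all genes (2.76% higher and 2.77% lower), with a median log2 fold change of 0.23 over the 44 genes and 0.05 over all. By edgeR no member was called lower, 5 being lower and 17 higher at an unadjusted p under 0.05, and DESeq2 called 8 higher and 2 lower. DESeq2 called 2066 of all 13770 genes in this comparison. Libraries did not overlap for 14 of the 44 genes, 10 above and 4 below Control, where 34.1% of all genes did not. Each hairpin library lay above each Control library for the 4 called genes. Their changes stayed between 1.44 and 1.78 for ID2, 1.29 and 1.81 for ACVR2B, 0.91 and 1.16 for ACVR2A and 0.76 and 1.09 for TGFBR1 (log2) over the alternatives, but the calls depended on the libraries included. Without Control 1, Control 2 or Control 3 edgeR called 0 of the members (15, 16 and 15 at an unadjusted p under 0.05), without any 1 Soft library it called 1 (ID2), and without hairpin #1, #2 or #3 it called 11, 10 and 6. Over all genes the fits without a Control library called 122, 66 and 161 of 13988 to 13998. Those without a Soft library called 331, 338 and 313 of 13951 to 13984. Those without a hairpin called 1660, 2013 and 1770 of 13950 to 13990. Only ACVR2B and ID2 were called in both comparisons against Control, which share the Control libraries, and both were higher in each. The share of all genes called in both is not given here, so this overlap is not shown to be particular to the members.

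**Figure D1:**
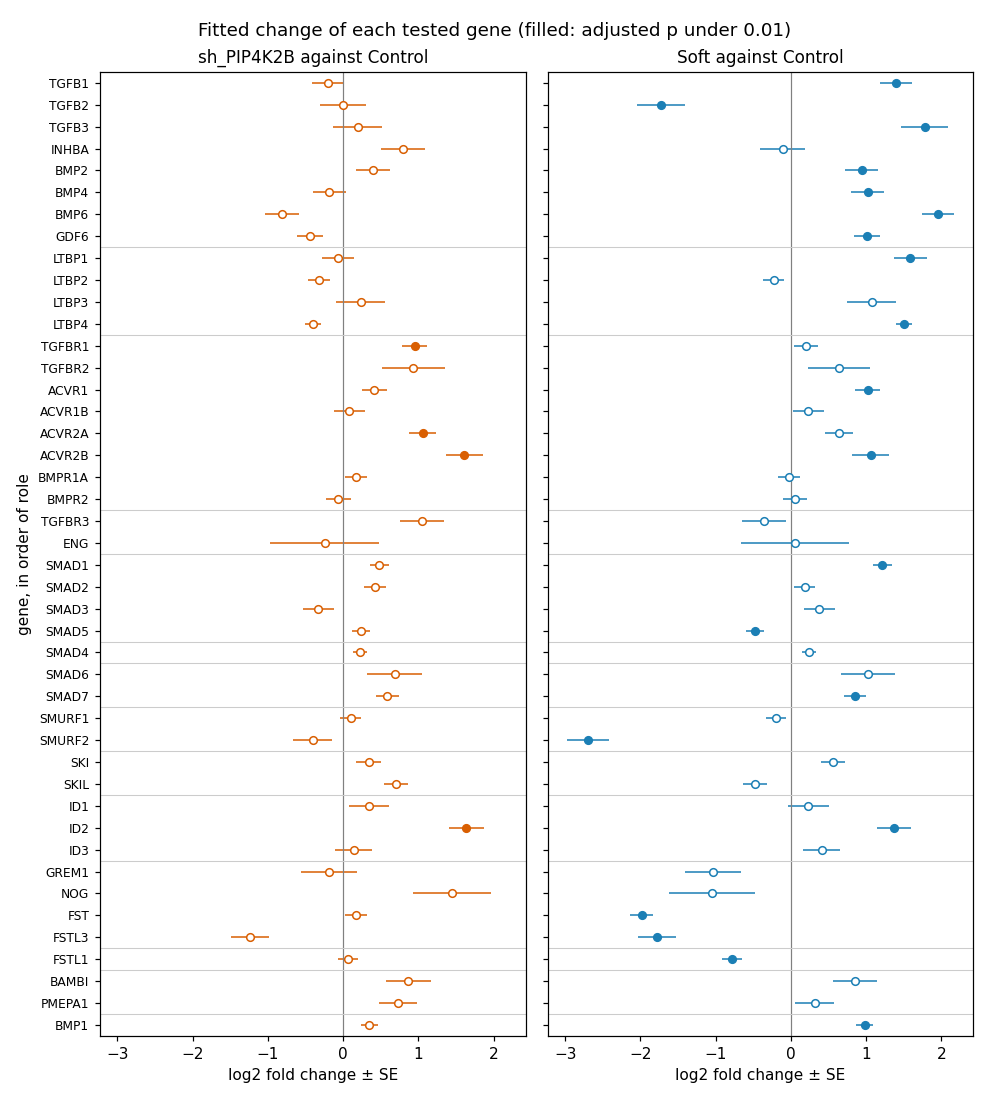
Log2 fold change ± SE of the 44 tested genes, listed by role, for sh_PIP4K2B against Control (left) and Soft against Control (right); filled points passed an adjusted p of 0.01. The 4 filled points on the left lie between 0.95 and 1.64, and the 20 on the right run from -2.70 (SMURF2) to 1.96 (BMP6).

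Spread between libraries differed by group. The median SD of log2 CPM over the 44 genes (with 0.5 CPM added) was 0.06 in Control, 0.43 in sh_PIP4K2B and 0.08 in Soft, and over all genes tested it was 0.08, 0.33 and 0.07. Because the fit shared a single estimate of the spread per gene, the hairpin libraries also entered the error of the Soft comparison. Fitted with Soft and Control alone, edgeR called 38 of 44 members on the gel, and with sh_PIP4K2B and Control alone it called 0, with 17 at an unadjusted p under 0.05. Over all genes the first of these fits called 9601 of 13578 and the second 5 of 13331. Compared with the Control mean, all 3 Soft libraries lay above for 29 of the 44 genes and below for 11, and all 3 hairpins lay above for 16 and below for 6. Of 20 genes that passed 2-fold in any Soft library, 12 did so in all 3 and in the same direction, and of 15 that did so with any hairpin, 1 did (ID2). These counts were made for the members only. Over all genes the hairpins also had the wider spread (0.33, against 0.07 in Soft), so the contrast is not shown to be particular to the members.

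**Figure D2:**
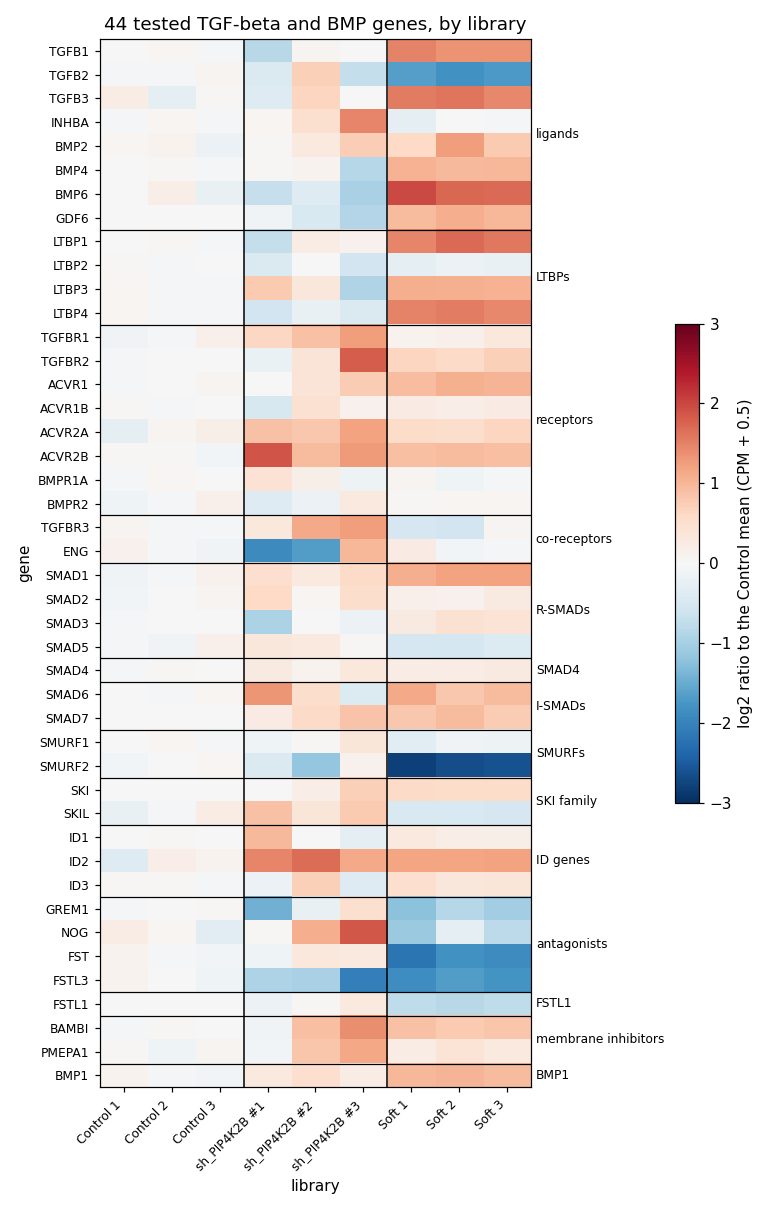
Log2 ratio of each library to the Control mean (CPM + 0.5) for the 44 tested genes, in rows grouped by role, with libraries in columns. The 3 Soft columns lie on different sides of the Control mean in 4 rows and the 3 hairpin columns in 22. The hairpin columns differ most for ENG.

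Per kb of transcript, which allows genes to be compared, the pathway in Control was led by FSTL1, a secreted glycoprotein related to follistatin, at 255 ± 1.51 CPM per kb (mean ± SD), followed by ID3 at 107 ± 3.88 and the activin antagonist FSTL3 at 104 ± 8.59. The ranges of ID3 and FSTL3 overlapped, so their order is not resolved. TGFB1 at 87.5 ± 3.36 and LTBP3 at 87.5 ± 3.27 did not differ beyond their spread either, and ID1 at 59.3 ± 0.995 and TGFB2 at 58.1 ± 3.3, again overlapping, came next. Receptors were lower: TGFBR2 led them at 47 ± 1.18, ACVR1 had 10.8 ± 0.573, and the last of the tested genes was the type II receptor ACVR2B at 0.187 ± 0.0112 CPM per kb. On the gel TGFB1 at 230.4 ± 12.1 CPM per kb stood above FSTL1 at 148 ± 4.81, and TGFB2 was at 17.5 ± 0.969. Lengths are those of the canonical transcript of GENCODE v44, and the isoform in use was not measured.

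**Figure D3:**
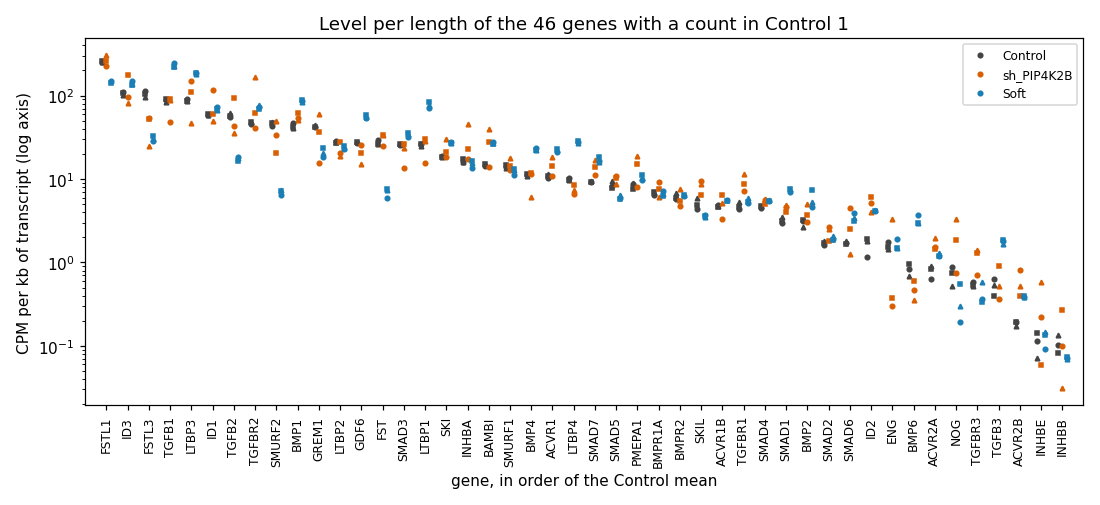
CPM per kb of canonical transcript (log axis) of the 46 genes with a count in Control 1, ordered by the Control mean; circles, squares and triangles are libraries 1, 2 and 3 of each group. Levels in Control fall from 255 CPM per kb (FSTL1) to 0.107 CPM per kb (INHBB).

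The 3 TGF-beta ligand genes moved in different directions on the gel. TGFB1, which encodes the most widely expressed isoform, was at 245, 252 and 233 CPM in Control, 135, 257 and 245 CPM with hairpins #1, #2 and #3, and 679, 620.4 and 622 CPM in Soft. Every Soft library lay above every other library, and hairpin #1 was the lowest of all. TGFB1 rose 2.63-fold on the gel (log2 1.40 ± 0.21, adjusted p = 0.000717), and its change with the hairpins was -0.20 ± 0.21 (adjusted p = 0.551). TGFB2, whose product needs the co-receptor TGFBR3 for efficient binding, was at 325, 335 and 363 CPM in Control, 253, 557 and 208 CPM with the hairpins and 108, 96.9 and 104 CPM in Soft. All Soft libraries were the lowest, and hairpin #2 was the highest with the other two below Control. TGFB2 fell 3.31-fold on the gel (log2 -1.73 ± 0.32, adjusted p = 0.00186); the adjusted p was 0.0113 without Soft 2 and 0.0104 without Soft 3. For the hairpins the log2 fold change was -0.01 ± 0.31 (adjusted p = 0.99), but -0.56 (adjusted p = 0.0080) without hairpin #2. Of the TGFB2 transcript, 22.4% of 75-base stretches also occur in TGFB2-OT1 and 8.30% of exonic bases lie opposite TGFB2-AS1, so its count is uncertain where counting did not use strand, which is not stated. TGFB3 was low, at 2.14, 1.36 and 1.84 CPM in Control, 1.24, 3.08 and 1.78 CPM with the hairpins and 6.2, 6.43 and 5.72 CPM in Soft. The Soft libraries stood clear of all others, with a change of 1.78 ± 0.31 (adjusted p = 0.00147). The ratio of TGFB1 to TGFB2 counts, not scaled to length, was 0.754, 0.750 and 0.643 in Control, 0.534, 0.461 and 1.17 with the hairpins and 6.27, 6.4 and 6.0 in Soft. Thus counts of TGFB2 exceeded those of TGFB1 in every library on glass except hairpin #3, and the reverse held in each library on the gel. Per kb of transcript, however, TGFB1 was above TGFB2 in every library on glass or gel except hairpin #2 (92.3 against 94.9 CPM per kb).

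Windows of 250 bases before the start of these 3 genes are shown because the ligands diverged on the gel, and because the core SMAD-binding motif can be looked for in them. They come from RefSeq (GRCh38.p14), as the 5′ to 3′ strand of the gene, and capitals mark CAGAC or its complement GTCTG. TGFB1 (chr19:41301587-41353922, minus strand) has the window chr19:41353923-41354172, TGFB2 (chr1:218345336-218444619, plus strand) the window chr1:218345086-218345335, which lies opposite an exon of the noncoding TGFB2-AS1, and TGFB3 (chr14:75958097-75983011, minus strand) the window chr14:75983012-75983261.
TGFB1: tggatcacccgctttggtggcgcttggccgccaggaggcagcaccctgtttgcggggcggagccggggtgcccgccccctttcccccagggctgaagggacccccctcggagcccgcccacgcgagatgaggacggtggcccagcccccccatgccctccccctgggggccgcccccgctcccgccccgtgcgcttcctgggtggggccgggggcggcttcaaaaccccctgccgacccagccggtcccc
TGFB2: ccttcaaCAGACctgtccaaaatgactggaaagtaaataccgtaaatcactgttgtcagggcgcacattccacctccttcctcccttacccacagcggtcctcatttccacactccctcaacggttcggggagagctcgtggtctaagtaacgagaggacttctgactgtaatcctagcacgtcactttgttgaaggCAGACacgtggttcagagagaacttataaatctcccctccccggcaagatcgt
TGFB3: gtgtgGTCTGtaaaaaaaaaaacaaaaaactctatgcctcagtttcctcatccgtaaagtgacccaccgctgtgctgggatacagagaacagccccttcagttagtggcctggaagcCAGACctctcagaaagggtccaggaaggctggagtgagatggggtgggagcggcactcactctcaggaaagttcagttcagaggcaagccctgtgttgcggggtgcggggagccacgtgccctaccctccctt
TGFB1 had no match and 76.8% G or C, TGFB2 had 2 matches and 50.4%, and TGFB3 had 2 matches and 54.8%. Over both strands CAGAC was in 15 of the 41 members matched in the promoter table (36.6%) and in 37.8% of all 27305 promoters. The palindrome GGCGCC, a GC-rich SMAD motif, was also in 15 of the 41 (36.6%), against 16.1% of all promoters. Those 15 windows had 63.2% (PMEPA1) to 89.6% (INHBB) G or C, and the part of base content in this difference was not tested. The AP-1 site TGANTCA was in 2 (4.88%, against 6.6%) and the TEAD motif GGAATG in 6 (14.6%, against 11.9%). Motifs were counted one by one, so matches of different motifs may share a base, and a match describes letters only.

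BMP ligand genes rose on the gel. BMP6 was at 3.12, 3.64 and 2.62 CPM in Control, 1.75, 2.26 and 1.33 CPM with the hairpins and 13.9, 11.4 and 11.3 CPM in Soft. The 3 groups did not overlap, with the hairpins lowest and Soft highest. Its change on the gel was 3.89-fold (log2 1.96 ± 0.21, adjusted p = 0.00011) and with the hairpins -0.81 ± 0.23 (adjusted p = 0.0377, not called). Of its exonic bases, 5.60% lie opposite TXNDC5. GDF6, a ligand known for roles in eye and joint development, was at 102, 103 and 103 CPM in Control, 96, 75.1 and 55.6 CPM with the hairpins and 198, 218 and 207 CPM in Soft. The groups again stood apart in the same order, with a rise of 2.02-fold on the gel (log2 1.02 ± 0.17, adjusted p = 0.00123) and -0.44 ± 0.17 with the hairpins (adjusted p = 0.107; -0.65, adjusted p = 0.0064, without hairpin #1). BMP4, which signals mainly through SMAD1 and SMAD5, was at 21.6, 21.9 and 21 CPM in Control, 22.1, 23 and 11.7 CPM with the hairpins and 45.1, 42.5 and 43.2 CPM in Soft. Soft was above every other library by 1.02 ± 0.22 (adjusted p = 0.00406), a call that was lost when any 1 Control or Soft library was left out, at an adjusted p of up to 0.0207. BMP2, a close relative of BMP4, was at 11, 11.3 and 9.31 CPM in Control, 10.9, 13.1 and 17.8 CPM with the hairpins and 16.2, 26 and 18.6 CPM in Soft. Soft 2 was the highest and Soft 1 lay below hairpin #3, so Soft overlapped the hairpins but not Control. BMP2 rose by 0.94 on the log2 scale (SE 0.22, adjusted p = 0.00731), and the call was lost without any 1 Control library, hairpin #2, Soft 2 or Soft 3, at an adjusted p of up to 0.0363.

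INHBA, which encodes the subunit of activin A, was at 97.1, 104 and 96.6 CPM in Control, 104, 138 and 275 CPM with the hairpins and 81.7, 99.7 and 94.8 CPM in Soft. Hairpin #3 was the highest library, and neither comparison with Control passed (adjusted p = 0.0956 and 0.788). The other activin subunit genes were near the floor and were not tested. INHBB had 7, 6 and 10 counts in Control, 7, 18 and 2 with the hairpins and 5, 5 and 5 in Soft, and INHBE had 6, 8 and 4, 12, 3 and 29 and 5, 7 and 8. Over the 8 ligand genes tested, 7 changed on the gel (6 higher and 1 lower), where 30.6% of all genes were called. With the hairpins, where 5.54% of all genes were called, 0 of the 8 were by edgeR or DESeq2, and 1 was higher and 2 lower at an unadjusted p under 0.05 by either tool.

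Of the genes for latency and activation, LTBP1, LTBP4 and BMP1 rose on the gel, and LTBP2 and LTBP3 were not called. LTBP1, which ties latent TGF-beta to fibronectin and fibrillin in the matrix, was at 169, 173 and 161 CPM in Control, 102, 196 and 184 CPM with the hairpins and 466, 543 and 501 CPM in Soft. Soft was 3.0-fold higher (log2 1.59 ± 0.22, adjusted p = 0.000402), and hairpin #1 was the lowest library. LTBP4 was at 51.2, 47.9 and 47.9 CPM in Control, 32.8, 42.2 and 36.2 CPM with the hairpins and 139, 143 and 134 CPM in Soft. All groups stood apart, with Soft 2.83-fold above Control (log2 1.50 ± 0.11, adjusted p = 1.68e-05) and the hairpins below it (-0.40 ± 0.11, adjusted p = 0.0363, not called). LTBP3 was at 441, 411 and 416 CPM in Control, 730.5, 533 and 227 CPM with the hairpins and 904, 892 and 874 CPM in Soft. The hairpins lay on either side of Control, and the change of 1.07 ± 0.33 in Soft missed the threshold (adjusted p = 0.0237; 0.0068 without hairpin #1 and 0.000190 without hairpin #3). LTBP2, which does not bind latent TGF-beta, ranged from 158 to 243 CPM over the 9 libraries and passed in no comparison. BMP1, despite its name a metalloproteinase that cleaves procollagen and the BMP antagonist chordin, was at 168, 153 and 148 CPM in Control, 191, 223 and 182 CPM with the hairpins and 309.7, 316 and 299.7 CPM in Soft. Its libraries were ordered Control, hairpins, Soft with no overlap, the rise on the gel being 0.98 ± 0.11 (adjusted p = 0.000148) and that with the hairpins 0.35 ± 0.11 (adjusted p = 0.0601, not called). Among 9 other genes for latency and activation that were tested, 1 was higher on the gel and 2 were lower. That share of 33.3% was near the 30.6% of all genes called. The called genes are named here after their values were seen. NRROS, which tethers latent TGF-beta, changed by 1.32 ± 0.21 on the log2 scale (adjusted p = 0.000935), THBS1, or thrombospondin 1, an activator of latent TGF-beta, by -1.46 ± 0.31 (adjusted p = 0.00431), and ITGB6, a subunit of an integrin that activates it, by -1.15 ± 0.28 (adjusted p = 0.00889).

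**Figure D4:**
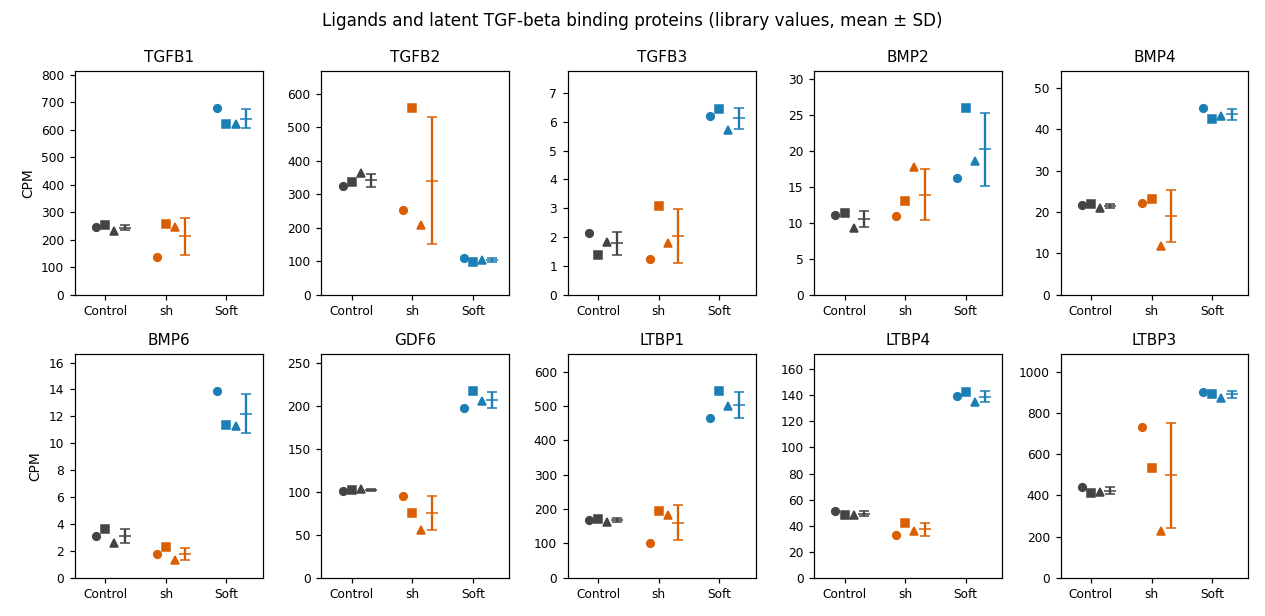
CPM of 10 ligand genes and LTBPs (INHBA, INHBB, INHBE and LTBP2 are not drawn); circles, squares and triangles are libraries 1, 2 and 3 (hairpins #1, #2 and #3), and bars are the mean ± SD of 3 libraries, on axes that start at 0. Soft libraries lie above all others for 8 of these 10 genes, TGFB2 is lowest there (96.9 to 108 CPM), and the hairpins spread widely for TGFB2 (208 to 557 CPM) and LTBP3.

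Of the 8 receptor genes tested, 3 were called higher with the hairpins, where 2.76% of all genes were. These were 3 of the 4 member calls. ACVR2B, a type II receptor for activins and some BMPs, was at 2.28, 2.28 and 2.05 CPM in Control, 9.44, 4.72 and 6.08 CPM with the hairpins and 4.56, 4.71 and 4.56 CPM in Soft. Control was the lowest group throughout, and only hairpin #2 lay close to Soft. ACVR2B was 3.06-fold higher with the hairpins (log2 1.61 ± 0.25, adjusted p = 0.00358) and 2.09-fold higher on the gel (log2 1.06 ± 0.25, adjusted p = 0.00691). Leaving out any 1 Control or Soft library ended both calls, at adjusted p of up to 0.0302 with the hairpins over the alternatives tried and 0.0324 on the gel. ACVR2A, the related type II receptor, was at 3.26, 4.39 and 4.68 CPM in Control, 7.97, 7.56 and 10.1 CPM with the hairpins and 6.29, 6.14 and 6.75 CPM in Soft. The order was Control, Soft, hairpins without overlap, with a rise of 1.06 ± 0.18 with the hairpins (adjusted p = 0.00589) and a change of 0.64 ± 0.18 on the gel that missed the threshold (adjusted p = 0.018; 0.0085 without hairpin #3). The call with the hairpins was lost without any 1 Control or Soft library (adjusted p of up to 0.0432 over the alternatives tried), and 10.3% of ACVR2A exonic bases lie opposite ORC4. TGFBR1, the type I receptor of TGF-beta, was at 28.2, 29.7 and 34 CPM in Control, 47.1, 56.5 and 74 CPM with the hairpins and 33.2, 34.2 and 38.2 CPM in Soft. Each hairpin was above every other library, whereas Soft and Control overlapped. TGFBR1 rose by 0.95 with the hairpins on the log2 scale (SE 0.16, adjusted p = 0.00602; up to 0.0391 without 1 Control or Soft library), and its change on the gel was 0.20 ± 0.16 (adjusted p = 0.342). Soft was lower than sh_PIP4K2B by 0.75 (adjusted p = 0.00509; 0.0107 without Control 2 and up to 0.0257 without 1 Soft library).

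TGFBR2, the type II receptor of TGF-beta and the receptor gene with the highest level per length, was at 207, 216 and 216 CPM in Control, 185, 279.5 and 755 CPM with the hairpins and 333, 316 and 349 CPM in Soft. Hairpin #3 was far above the rest and hairpin #1 below Control. Soft lay above Control throughout, but with that spread the change of 0.64 ± 0.41 was not called (adjusted p = 0.226; 0.0056 without hairpin #3). ACVR1, a type I receptor for BMPs also called ALK2, was at 34.4, 35.8 and 38.1 CPM in Control, 36.1, 47.2 and 61.3 CPM with the hairpins and 69.5, 76 and 74 CPM in Soft. It rose 2.03-fold on the gel (log2 1.02 ± 0.17, adjusted p = 0.00119), each Soft library being the highest. ACVR1B, the activin type I receptor, BMPR1A and BMPR2 passed in no comparison, and their libraries ranged from 15.1 to 29.5 CPM, 38.8 to 58.4 CPM and 57 to 91.1 CPM. Of the BMPR1A transcript, 14.7% of 75-base stretches also occur in the pseudogene BMPR1AP2.

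ENG, or endoglin, a co-receptor best known in endothelium, had the widest spread between hairpins of the 44 genes (SD of log2 CPM 1.62). It was at 5.12, 4.48 and 4.28 CPM in Control, 0.875, 1.11 and 9.79 CPM with hairpins #1, #2 and #3, and 5.61, 4.33 and 4.43 CPM in Soft. Hairpins #1 and #2 lay below every other library and hairpin #3 above every one, so that the group change of -0.24 ± 0.73 was not called (adjusted p = 0.848). Without hairpin #3 the change was -2.22 (adjusted p = 0.000659). TGFBR3, or betaglycan, the other co-receptor, was at 3.68, 3.38 and 3.32 CPM in Control, 4.47, 8.14 and 8.95 CPM with the hairpins and 2.28, 2.14 and 3.67 CPM in Soft. The hairpins were above all other libraries, by 1.05 ± 0.29 over Control (adjusted p = 0.0362, not called; 0.0043 without hairpin #1). Soft was 2.66-fold below the hairpins (log2 -1.41 ± 0.29, adjusted p = 0.00397; 0.0118 without hairpin #2, 0.0216 without Soft 1 and 0.0213 without Soft 2).

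Among SMAD genes, SMAD1 and SMAD5, which both serve BMP receptors, moved in opposite directions on the gel. SMAD1 was at 8.94, 9.35 and 10.6 CPM in Control, 13.9, 11.9 and 14.5 CPM with the hairpins and 21.2, 23 and 22.8 CPM in Soft. The groups were ordered Control, hairpins, Soft without overlap, with a rise of 2.32-fold on the gel (log2 1.21 ± 0.12, adjusted p = 8.58e-05) and 0.48 ± 0.12 with the hairpins (adjusted p = 0.0289, not called). Of SMAD1 exonic bases, 12.5% lie opposite SMAD1-AS1. SMAD5 was at 57.1, 54.5 and 65.6 CPM in Control, 75.5, 73 and 60.4 CPM with the hairpins and 41.7, 40.8 and 44.6 CPM in Soft. Soft was the lowest group, 1.39-fold below Control (log2 -0.48 ± 0.12, adjusted p = 0.00961), a call kept in 5 of 16 alternatives and lost without any 1 Control or Soft library (adjusted p of up to 0.0474). SMAD3, a mediator of TGF-beta and activin, was at 167, 172 and 170.4 CPM in Control, 87.1, 168 and 151 CPM with the hairpins and 205, 232 and 225 CPM in Soft. Soft was the highest group but was not called (0.38 ± 0.21, adjusted p = 0.159; 0.0032 without hairpin #1, the lowest library). SMAD2, its partner, ranged from 56.5 to 91 CPM and passed in no comparison. SMAD4, the shared partner, was at 39.2, 42 and 41.3 CPM in Control, 49, 43.9 and 50.7 CPM with the hairpins and 47.6, 48 and 49 CPM in Soft. Both other groups lay just above Control, by 0.23 ± 0.10 and 0.24 ± 0.10, and neither passed (adjusted p = 0.128 and 0.0636).

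The genes that restrain SMAD signalling did not move together. SMAD7, an inhibitory SMAD that TGF-beta itself induces, was at 30.8, 30.9 and 31.5 CPM in Control, 36.8, 46.4 and 57 CPM with the hairpins and 54.9, 60.5 and 52.8 CPM in Soft. Control was below every other library, with a rise of 0.85 ± 0.15 on the gel (adjusted p = 0.00159) and 0.59 ± 0.15 with the hairpins (adjusted p = 0.0278, not called; 0.0020 without hairpin #1). SMAD6, the inhibitory SMAD of the BMP branch, was at 6.52, 6.32 and 6.86 CPM in Control, 17.1, 9.63 and 4.84 CPM with the hairpins and 15.1, 11.9 and 13.1 CPM in Soft. The hairpins ran from above Soft to below Control, and the change of 1.02 ± 0.36 on the gel was not called (adjusted p = 0.0411; 0.0045 without hairpin #1 and 0.0038 without hairpin #3). SMURF2, a ubiquitin ligase that marks SMADs and TGF-beta receptors for degradation, was at 268, 289 and 298 CPM in Control, 209.6, 127 and 311 CPM with the hairpins and 40.4, 45 and 46.4 CPM in Soft. All Soft libraries were well below the rest, and SMURF2 fell 6.49-fold (log2 -2.70 ± 0.28, adjusted p = 8.67e-05), the largest fall among the 44 genes. Its relative SMURF1 was at 80, 82.7 and 76.9 CPM in Control, 72.6, 81.8 and 102 CPM with the hairpins and 63.6, 74.4 and 71.7 CPM in Soft, with changes of 0.10 ± 0.13 and -0.19 ± 0.13 that were not called (adjusted p = 0.644 and 0.263). The co-repressor SKI was at 114, 110.5 and 112 CPM in Control, 113, 129 and 183 CPM with the hairpins and 168, 164 and 165 CPM in Soft. Soft lay above Control by 0.57 ± 0.16 without passing (adjusted p = 0.0174; 0.0038 without hairpin #1 and 0.000351 without hairpin #3). SKIL, the related co-repressor SnoN, was at 31.1, 34.8 and 42.3 CPM in Control, 67.2, 46.4 and 62.2 CPM with the hairpins and 26.3, 25.9 and 25.4 CPM in Soft. The hairpins were above and Soft below every Control library, changes of 0.70 ± 0.16 and -0.48 ± 0.16 that were not called against Control (adjusted p = 0.0177 and 0.0344), while Soft was 2.27-fold below the hairpins (adjusted p = 0.000419).

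Windows before the starts of ACVR2A, ACVR2B and SMAD7 are shown because the receptor pair rose with the hairpins and because SMAD7 is a known target of SMADs. Capitals again mark CAGAC or GTCTG. ACVR2A (chr2:147844517-147930826, plus strand) has the window chr2:147844779-147845028, which lies in no exon but within longer annotated transcripts of the gene, ACVR2B (chr3:38453890-38493142, plus strand) the window chr3:38453640-38453889, and SMAD7 (chr18:48919853-48950965, minus strand) the window chr18:48950966-48951215.
ACVR2A: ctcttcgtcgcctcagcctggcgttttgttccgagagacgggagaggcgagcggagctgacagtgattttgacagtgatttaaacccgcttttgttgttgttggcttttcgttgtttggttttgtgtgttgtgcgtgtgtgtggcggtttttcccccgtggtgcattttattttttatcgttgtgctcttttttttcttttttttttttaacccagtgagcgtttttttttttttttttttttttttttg
ACVR2B: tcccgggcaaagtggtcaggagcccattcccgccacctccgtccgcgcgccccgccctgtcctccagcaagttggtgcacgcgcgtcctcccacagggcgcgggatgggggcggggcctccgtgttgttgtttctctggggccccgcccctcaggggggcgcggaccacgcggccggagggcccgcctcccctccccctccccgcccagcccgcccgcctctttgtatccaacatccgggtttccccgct
SMAD7: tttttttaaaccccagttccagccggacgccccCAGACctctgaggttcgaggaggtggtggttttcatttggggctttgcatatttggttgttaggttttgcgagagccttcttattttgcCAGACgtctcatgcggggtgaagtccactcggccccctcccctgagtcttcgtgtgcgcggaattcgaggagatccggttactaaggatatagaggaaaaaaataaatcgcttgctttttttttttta
Neither receptor window held the motif, and they differed in base content, with 40.8% G or C for ACVR2A and 74% for ACVR2B. SMAD7 had 2 matches and 48% G or C.

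**Figure D5:**
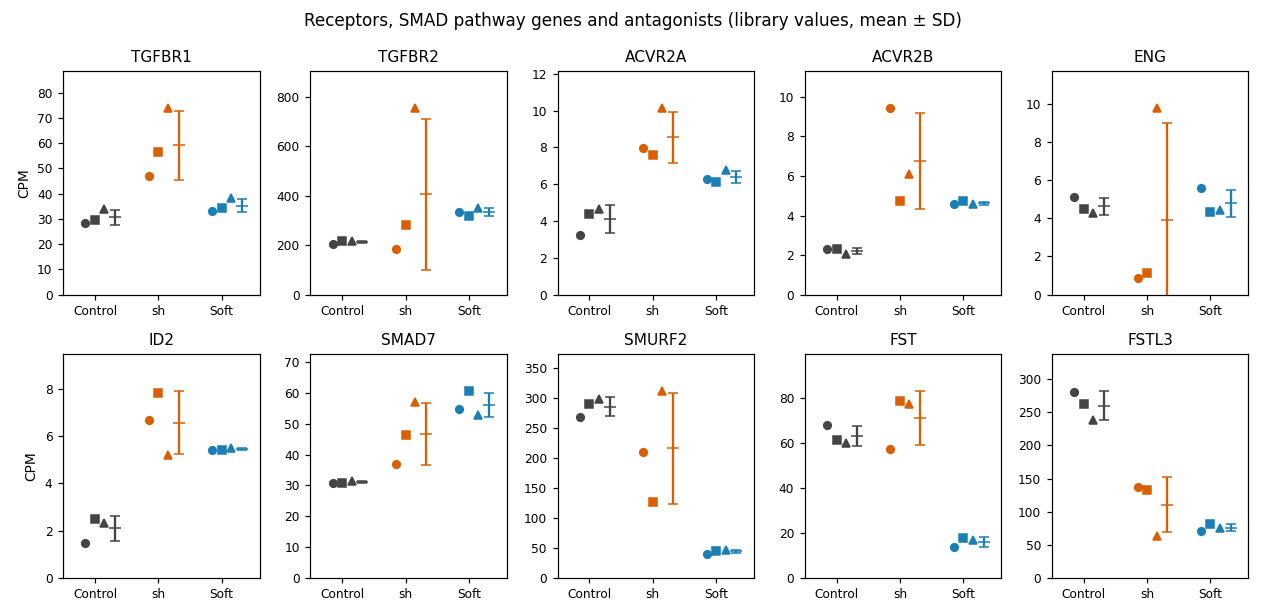
CPM of receptors, SMAD pathway genes and antagonists by library; circles, squares and triangles are libraries 1, 2 and 3 (hairpins #1, #2 and #3), and bars are the mean ± SD of 3 libraries, on axes that start at 0. The hairpins lie above Control for TGFBR1, ACVR2A, ACVR2B, ID2 and SMAD7, and Soft lies below Control for SMURF2, FST and FSTL3.

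The ID genes, direct targets of BMP SMADs that encode inhibitors of helix-loop-helix factors, differed among themselves. ID2 was at 1.49, 2.5 and 2.32 CPM in Control, 6.68, 7.85 and 5.19 CPM with the hairpins and 5.43, 5.43 and 5.5 CPM in Soft. Every library of the other groups was above every Control library. ID2 rose 3.12-fold with the hairpins (log2 1.64 ± 0.23, adjusted p = 0.0023) and 2.58-fold on the gel (log2 1.37 ± 0.23, adjusted p = 0.00116); the first call was lost without any 1 Control library (adjusted p of up to 0.0250 over the alternatives tried) and the second was kept in all 16. ID3, the ID gene with the highest level per length, was at 104, 103 and 97 CPM in Control, 90.2, 167 and 77.5 CPM with the hairpins and 144, 129 and 131 CPM in Soft. Hairpin #2 was the highest library and hairpin #3 the lowest, and the change on the gel was 0.41 ± 0.24 (adjusted p = 0.193; 0.0056 without hairpin #2). ID1 ranged from 48.1 to 115 CPM, both extremes being hairpins, and passed in no comparison. ID4 had 0 counts in all 9 libraries, so that each library allows a level of up to its floor of 3 counts.

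Among secreted antagonists and their relatives, FST, FSTL3 and FSTL1 fell on the gel, and GREM1 and NOG were not called against Control. Of 10 other extracellular inhibitors tested, 4 were higher and 2 lower there, where 30.6% of all genes were called. FST, or follistatin, which binds activins, was at 67.8, 61.2 and 59.8 CPM in Control, 57.1, 78.3 and 77.3 CPM with the hairpins and 13.5, 17.5 and 16.8 CPM in Soft. The Soft libraries were the lowest, and FST fell 3.95-fold on the gel (log2 -1.98 ± 0.16, adjusted p = 2.35e-05). FSTL3, a follistatin relative with the same targets, was at 281, 262 and 238 CPM in Control, 137, 133 and 62.8 CPM with the hairpins and 71, 81.4 and 75.3 CPM in Soft. It fell 3.43-fold on the gel (log2 -1.78 ± 0.26, adjusted p = 0.000516), and all hairpins were below Control by -1.23 ± 0.25 (adjusted p = 0.0117, not called; 0.0070 without hairpin #1, 0.000799 without hairpin #3). GREM1, or gremlin, a BMP antagonist, was at 605, 620.5 and 640.2 CPM in Control, 228, 536 and 872 CPM with the hairpins and 265, 346 and 299.9 CPM in Soft. Soft lay below Control throughout, but the hairpins covered a wider range than both, and the change of -1.03 ± 0.37 missed the threshold (adjusted p = 0.046; 0.0011 without hairpin #1). NOG, or noggin, was near the limit of detection in Soft, at 1.68, 1.45 and 1.0 CPM in Control, 1.43, 3.52 and 6.33 CPM with the hairpins and 0.365, 1.05 and 0.581 CPM in Soft. Hairpins #2 and #3 were the highest libraries, and Soft was below the hairpins by 2.49 on the log2 scale (adjusted p = 0.00567), a call lost when any 1 library other than hairpin #1 was left out (adjusted p of up to 0.0276). FSTL1 was at 1441, 1458 and 1453 CPM in Control, 1286, 1489 and 1764 CPM with the hairpins and 857, 809.8 and 857 CPM in Soft. It fell 1.72-fold on the gel (log2 -0.79 ± 0.14, adjusted p = 0.00136), with no overlap.

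The membrane inhibitors differed between hairpins. BAMBI, a receptor-like protein without a kinase, was at 24.4, 25.8 and 25.6 CPM in Control, 23.6, 47.3 and 67.5 CPM with the hairpins and 47.2, 44.1 and 45.3 CPM in Soft. Hairpin #1 lay below Control and hairpin #3 was the highest library, so that neither the change of 0.87 ± 0.30 with the hairpins nor that of 0.85 ± 0.30 on the gel passed (adjusted p = 0.0732 and 0.0397). Without hairpin #1 they were 1.18 (adjusted p = 0.000881) and 0.84 (adjusted p = 0.000570). PMEPA1, a TGF-beta target that sequesters SMAD2 and SMAD3, ranged from 38.0 to 93.5 CPM and was not called against Control (adjusted p = 0.0799 with the hairpins and 0.336 on the gel; without hairpin #1 the former change was 1.00, adjusted p = 0.000991).

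Directly compared, Soft and sh_PIP4K2B differed for 18 of the 44 genes, 9 higher and 9 lower in Soft, where 30.0% of all genes were called (14.5% higher and 15.5% lower). TGFB1, TGFB3, BMP4, BMP6, GDF6, LTBP1, LTBP4, SMAD1 and BMP1 were higher in Soft, and TGFB2, TGFBR1, TGFBR3, SMAD5, SMURF2, SKIL, NOG, FST and FSTL1 were lower. BMP6 differed most among the former (6.81-fold, log2 2.77 ± 0.22, adjusted p = 3.51e-05) and, among the latter, NOG was lower 5.63-fold (log2 -2.49 ± 0.56, adjusted p = 0.00567), SMURF2 4.91-fold (log2 -2.30 ± 0.27, adjusted p = 0.000211) and FST 4.46-fold (log2 -2.16 ± 0.16, adjusted p = 2.36e-05). For 4 of the 18 (BMP6, LTBP4, GDF6 and SKIL) the Soft and hairpin libraries lay on opposite sides of Control with no overlap, that is 9.09% of the 44 members, where 7.20% of all genes met the same rule. For ACVR2B the difference was -0.55 ± 0.24 (adjusted p = 0.0844) and for ID2 -0.27 ± 0.22 (adjusted p = 0.331), so that neither of the genes called against Control in both conditions was shown to differ between them. TGFB2 was lost without any 1 Soft library (adjusted p of up to 0.0121), TGFB3 likewise (up to 0.0128), and BMP1 without Soft 2 (0.0103). With only these conditions compared, TGFB2, TGFB3, TGFBR1, TGFBR3, NOG, BMP1 (0.0131), BMP4 (0.0112) and FSTL1 (0.0102) were lost.

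Other genes of the pathway were taken from a list of 101, of which 99 were in the table and 72 were tested. On the gel 32 of the 72 changed (18 higher, 14 lower) and with the hairpins 8 (6 higher, 2 lower). These are 44.4% and 11.1%, against 30.6% and 5.54% of all genes tested. With another scaling (upper quartile) the split on the gel was 20 higher and 10 lower, and scaled by library size alone that with the hairpins was 8 higher and 1 lower. Over all 13784 genes the former scaling called 4272 on the gel and the latter 667 with the hairpins. Without any 1 Control library the count with the hairpins was 1, 0 and 1 (by edgeR, 28 at an unadjusted p under 0.05 for the 0), without any 1 Soft library 3, and without hairpin #1, #2 or #3 it was 19, 17 and 14. On the gel the count was 20, 21 and 20 without a Control library and 21 without Soft 3. Over all genes, leaving out a Control library gave 122, 66 and 161 calls with the hairpins and 2721, 2549 and 2506 on the gel. Leaving out a Soft library gave 331, 338 and 313 calls with the hairpins, and leaving out a hairpin gave 1660, 2013 and 1770. On the gel 2536 of all genes were called without Soft 3.

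Among the 10 with the largest change on the gel, CTGF, a matrix protein gene that TGF-beta and YAP induce, was at 1391, 1402 and 1381 CPM in Control, 634, 884 and 979 CPM with the hairpins and 153, 165 and 163 CPM in Soft, a fall of 8.66-fold (adjusted p = 4.93e-06). ATOH8, a BMP target, was at 8.29, 7.42 and 7.47 CPM in Control, 10.6, 13.2 and 8.65 CPM with the hairpins and 82.7, 74.1 and 79 CPM in Soft, a rise of 10.2-fold (adjusted p = 2.56e-06). Of 16 target genes tested, 5 were higher and 4 lower on the gel, where 15.8% and 14.8% of all genes were. NEO1, a receptor of repulsive guidance molecules that act as BMP co-receptors, rose 6.21-fold (adjusted p = 0.00019). RGMB, a co-receptor of that kind, fell 5.19-fold (adjusted p = 0.000136), though 60.1% of its exonic bases lie opposite another gene. RGMA, its relative, was at 0.0931, 0 and 0.0437 CPM in Control and 1.82, 1.05 and 1.16 CPM in Soft (adjusted p = 0.00118), too few counts for a fold. DCN, or decorin, which binds TGF-beta and was also on the list of fibroblast markers, rose 10.5-fold (adjusted p = 9.57e-05). NEDD4L, a ubiquitin ligase for SMAD2 and SMAD3, fell 4.52-fold (adjusted p = 0.000214), while the ligand BMP3 rose from 0.0466, 0.0878 and 0.0874 CPM to 0.456, 0.381 and 0.536 CPM (adjusted p = 0.00309), again with too few counts for a fold.

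With the hairpins the 8 called were BMP3 (1, 2 and 2 counts in Control and 10, 21 and 12 with the hairpins, adjusted p = 0.00376), the target genes JUNB (1.74 ± 0.32, adjusted p = 0.00743), SNAI1 (1.18 ± 0.13, adjusted p = 0.000971) and RUNX2 (0.98 ± 0.14, adjusted p = 0.00251), and the SMAD regulators TGIF1 (1.03 ± 0.18, adjusted p = 0.00616) and PPM1A (0.71 ± 0.12, adjusted p = 0.00544), all higher. The BMP-binding proteins BMPER (-1.42 ± 0.21, adjusted p = 0.00288) and TWSG1 (-0.69 ± 0.12, adjusted p = 0.00616) were lower. SNAI1, a transcription factor of the mesenchymal change, was at 10.2, 9.74 and 9.0 CPM in Control, 21.4, 25.1 and 18.9 CPM with the hairpins and 36.4, 33.4 and 36.2 CPM in Soft. RUNX2, a partner of SMADs, was at 12.3, 12.8 and 13.8 CPM in Control, 20.4, 28 and 28.4 CPM with the hairpins and 48.2, 51.1 and 48.6 CPM in Soft. Both were ordered Control, hairpins, Soft with no overlap, and both also passed between Soft and the hairpins (adjusted p = 0.00186 and 0.000567). BMPER was at 51.6, 47.4 and 50.9 CPM in Control, 15.4, 15.9 and 24.8 CPM with the hairpins and 14.4, 21 and 15.3 CPM in Soft, both groups being below Control and overlapping each other.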

How the data were processed

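RNA was sequenced in 9 libraries (stranded poly(A) libraries, paired-end). Per the study's methods and the submitters' processing notes, the authors aligned reads with STAR to GRCh38 (hg38); the notes also name Salmon. The annotation and the use of strand in counting are not given in the sources used here. The deposited table holds estimated counts per gene symbol, not normalised, 12.3% of which are not whole, and these were rounded here; all of its sample columns were used. Groups and replicate numbers came from the labels. Genes were filtered with filterByExpr and scaled by TMM in edgeR 4.0.16 (R 4.3.3), and 1 quasi-likelihood fit over the 9 libraries gave 3 comparisons, with Benjamini-Hochberg adjustment over 13784 genes and a threshold of 0.01. The fit was tested on simulated data. Group means are given with the SD of 3 libraries. The SE of a log2 fold change comes from the quasi-likelihood fit and includes the spread between libraries, whereas floors cover counting error only.

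The values set no threshold on membership, but the genes and lists were chosen with earlier results of these data known. Every member was accounted for: those called in any comparison, and the member with the highest level per length among those called in none of a role, are given by library, and of the other pathway genes at most 10 per comparison with Control are named, by size of change; 2 of those on the gel are not reported here. Alternatives were no filter, a minimum of 10 counts in each library, library-size or upper-quartile scaling, DESeq2 1.42.0, only the 2 conditions compared, a replicate block, leaving out each library and thresholds of 0.05 and 0.001. Lengths and overlaps came from GENCODE v44 and promoters from RefSeq GRCh38.p14, in which 41 of 47 members matched (not INHBE, BMP2, SKI, NOG, GDF6 or BMP1). Hairpin sequences are not shown here.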

Additional observations from a re-analysis of the deposited data

Results flagged for a closer look

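For 4 genes every hairpin library lay on one side of every Control library and every Soft library on the other, and edgeR's direct test between Soft and sh_PIP4K2B passed 0.01. The same held for 7.20% of all genes tested. BMP6 differed by 2.77 ± 0.22 on the log2 scale (Soft against sh_PIP4K2B, ± SE, adjusted p = 3.51e-05), from -0.81 with the hairpins and 1.96 on the gel against Control. LTBP4 differed by 1.90 ± 0.11 (adjusted p = 8.60e-06), from -0.40 and 1.50. GDF6 differed by 1.46 ± 0.17 (adjusted p = 0.000213), from -0.44 and 1.02. SKIL differed the other way, by -1.18 ± 0.16 (adjusted p = 0.000419), from 0.70 and -0.48. Against Control the hairpin change of each gene missed 0.01 by edgeR with all libraries. DESeq2 called LTBP4 (-0.41, adjusted p = 0.0037) and SKIL (0.70, adjusted p = 0.0013) there, and edgeR called GDF6 without hairpin #1 (-0.65, adjusted p = 0.0064) and LTBP4 (-0.51, adjusted p = 0.0043) and SKIL (0.84, adjusted p = 0.0030) without hairpin #2. Values in groups of 3 libraries were not examined for outlying samples.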

How the results depend on the processing

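No direction was reversed for any gene called, in any of the alternatives run. The members called with the hairpins (4) became 10 with DESeq2, 0 with only the 2 conditions compared (17 at an unadjusted p under 0.05 by edgeR), 0 to 11 when 1 library was left out, 11 at a threshold of 0.05 and 0 at 0.001 (22 at an unadjusted p under 0.05). Over all genes the 763 called there became 2066 with DESeq2, 5 with only the 2 conditions and 66 to 2013 when 1 library was left out. On the gel the 20 became 38 with only the 2 conditions compared and 9 at a threshold of 0.001, and 15 to 26 when 1 library was left out. Over all genes the 4217 called on the gel became 9601 with only the 2 conditions and 2506 to 6373 when 1 library was left out. Between Soft and sh_PIP4K2B the 18 became 10 with only the 2 conditions compared and 9 at 0.001, and 12 to 23 when 1 library was left out. There the 4135 called over all genes became 2183 with only the 2 conditions and 2350 to 5374 when 1 library was left out. Counts over all genes at 0.05 and 0.001 are not given here. Of the other pathway genes, the 8 called with the hairpins became 17 with DESeq2, 0 with only the 2 conditions (26 at an unadjusted p under 0.05), 0 to 19 when 1 library was left out, 18 at 0.05 and 1 at 0.001. The 32 on the gel became 56 with only the 2 conditions, 20 to 42 when 1 library was left out and 17 at 0.001, and the 30 between Soft and sh_PIP4K2B became 12, 12 to 37 and 10. Fewer libraries or a wider or narrower shared spread enter these fits by construction; the cause of single changes was not tested.

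Libraries shared replicate numbers, and the titles of Control and Soft also shared a vector number, but no pairing was stated. Same-numbered libraries had correlations of -0.12 to 0.04 in their deviations from the group means. With the replicate number as a block, the members called with the hairpins were 2 and the other pathway genes 3, on the gel 17 and 27, and between Soft and sh_PIP4K2B 17 and 25. Over all 13784 genes the block gave 295, 3536 and 3366 calls in these comparisons. Scaling by library size alone moved the median of all genes to 0.14 with the hairpins and 0.12 on the gel, without changing a direction. Depth limited INHBB, INHBE and ID4, which were not tested, and left NOG, TGFB3, TGFBR3, ACVR2B and ID2 with the fewest counts among the genes called.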

Other observations

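The direct comparison of Soft with sh_PIP4K2B also touched other pathway genes, named here after their values were seen; 30 of 72 passed, 16 higher and 14 lower in Soft, where 14.5% of all genes were higher and 15.5% lower. GDF15, a stress-induced ligand, was at 0.512, 0.439 and 0.35 CPM in Control, 0.921, 1.83 and 2.62 CPM with the hairpins and 0.182, 0.286 and 0.0447 CPM in Soft (log2 -3.36 ± 0.55, adjusted p = 0.00113). The hairpins lay above and Soft below Control, with few counts in Soft. SNAI2, a relative of SNAI1, was at 10.6, 10.7 and 11.5 CPM in Control, 5.94, 16.8 and 50.6 CPM with the hairpins and 3.1, 4.19 and 3.62 CPM in Soft (log2 -2.75 ± 0.63, adjusted p = 0.00626), with hairpin #3 the highest library. USP15, a deubiquitinase that acts on TGF-beta receptors and SMADs, was at 58.8, 66.9 and 67.3 CPM in Control, 126, 96.8 and 88.7 CPM with the hairpins and 32.4, 34.7 and 35.4 CPM in Soft (log2 -1.61 ± 0.14, adjusted p = 5.29e-05). USP11, a deubiquitinase of the same pathway, moved the other way, at 59, 59.4 and 54.5 CPM, 63.4, 44.5 and 56.5 CPM and 111, 110.3 and 108 CPM (log2 1.00 ± 0.13, adjusted p = 0.000326).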
